A study of Mus musculus with 6 samples.

Results

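The genes of tumour necrosis factor (TNF), its receptors, its shedding protease and the proteins that assemble on the receptor to signal survival or death were followed in macrophage-lineage mouse cells treated with NETs (neutrophil extracellular traps, strands of chromatin and granule proteins shed by neutrophils). The 10 genes were taken by symbol from a table of 55401 genes: Tnf, Tnfrsf1a, Tnfrsf1b, Adam17, Tradd, Traf2, Ripk1, Ripk3, Cflar and Casp8. All 10 were found, and all 10 passed the filter on low counts that left 15272 genes to be tested. Both groups were of wild-type genotype, with 3 control samples labelled Normal and 3 samples labelled NETs-treated. The cell type is labelled BMDM (bone marrow-derived macrophages), while every sample title carries the name BV2, which is a mouse microglial cell line. The sources used here do not give the age of animals, the NETs dose, how long it was applied, or whether each sample was its own culture. The p-values therefore reflect only the variation among these 6 samples, and part or all of it could be technical.

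TNF is made as a protein anchored in the membrane, and the protease encoded by Adam17 cuts it free. It binds a widely expressed death-domain receptor (Tnfrsf1a) and a receptor without a death domain that is prominent on immune cells (Tnfrsf1b). On the death-domain receptor, TRADD, RIPK1 and TRAF2 form a membrane complex that drives NF-kB and survival. When that complex is not maintained, RIPK1, FADD and caspase-8 form a cytosolic complex that kills by apoptosis. The caspase-like protein cFLIP, encoded by Cflar, restrains caspase-8, and where caspase-8 is blocked RIPK3 can drive the lytic death called necroptosis. Macrophages are a main source of TNF.

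NETs-treated cells held more transcript of Tnfrsf1b, Tradd, Traf2 and Cflar and less of Tnf and Adam17. Transcripts of Tnfrsf1a, Ripk1, Ripk3 and Casp8 did not pass the test. Of the 10 genes, 4 were thus called higher and 2 lower (quasi-likelihood test of edgeR, p adjusted over all tested genes by the Benjamini-Hochberg method and called under 0.05). The same test called 52.7% of all tested genes, 25.5% higher and 27.2% lower, so a call was common in these samples, and 6 calls in 10 genes lie near that background. The groups did not overlap for 6 of the 10 genes, against 62.4% of all tested genes. The median log2 fold change was 0.07 over the 10 genes and -0.02 over all tested genes, and the median absolute change was 0.35 against 0.52. Tnfrsf1b was the member that changed by at least 2-fold. Leaving out control replicate 1, control replicate 2 or NETs-treated replicate 2 lowered the count of falling members from 2 to 1, since Tnf then lost its call.

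**Figure D1:**
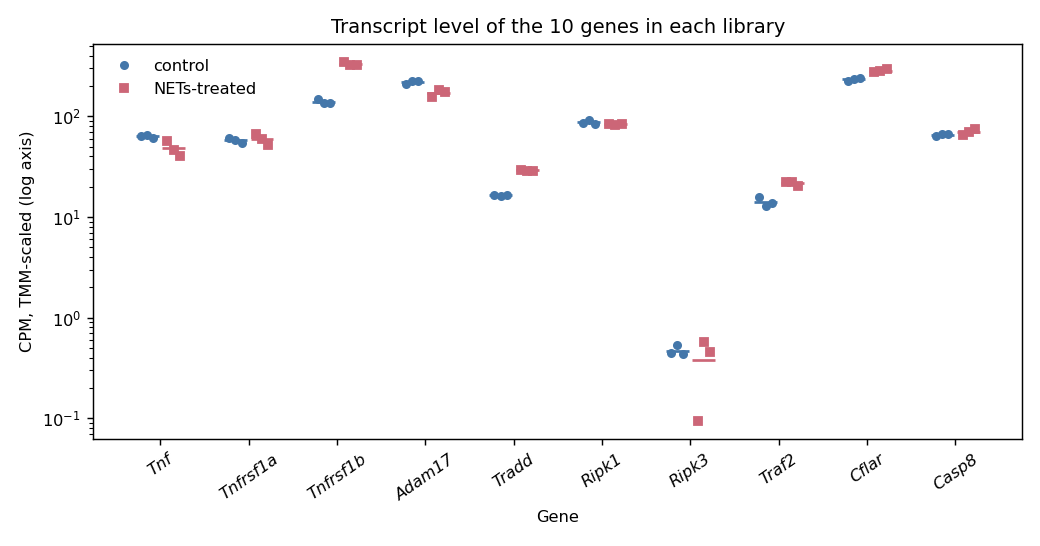
Level in CPM (read counts relative to the TMM-scaled library size, log axis) of the 10 genes in the 3 control (circles) and 3 NETs-treated libraries (squares), with a line at each group mean. Tnfrsf1b rises from about 139 to 335 CPM, while Ripk3 lies below 1 CPM in every library.

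The total count per library ran from 39994613 to 44274445. Spread within a group was wider after NETs than in the controls, with a median SD of log2 CPM over genes of 0.179 against 0.11. NETs-treated replicates 1 and 3 were the least alike of the same-group library pairs. Of 10 macrophage markers all 10 were tested, with a summed level of 5890 to 6036 CPM in control and 10370 to 10660 CPM in NETs-treated libraries. The sum was higher through Lyz2, with 2978 and 3526 CPM, and Cd14, which went from 691 to 5442 CPM, while the other 8 markers fell. Of 11 microglial markers 7 were tested, of which 1 rose and 5 fell. Trem2 had 190 and 88.4 CPM, Tmem119 had 1.44 and 5.04 CPM, and Sall1 was at 0 in every library. Of 15 neutrophil markers the summed level was 137 to 153 CPM in control and 191 to 215 CPM in NETs-treated libraries, mostly Lcn2 and Mmp9, which macrophages also express. Of the 7 tested, 2 rose, Lcn2 from 32.4 to 146 CPM and S100a8 from 2.68 to 11.7 CPM. Mmp9 (96.3 to 45.0 CPM), Csf3r (6.21 to 0.127 CPM), Prtn3 (1.26 to 0.209 CPM) and Cxcr2 (1.60 to 0.809 CPM) fell, the last 3 named after their values were seen. Csf3r and Prtn3 passed the filter on low counts through their control reads. S100a9, Ly6g, Mpo, Ngp, Ltf and Retnlg were at 0 in all libraries, which allows up to 0.0228 CPM in the control and 0.0246 CPM in the NETs-treated group (3 counts over the group, counting error only). Markers of T cells summed to at most 4.32 CPM, those of B cells to at most 0.348 CPM, and those of mast cells and fibroblasts to at most 0.0930 CPM. Dendritic cell markers (152 to 160 and 59.7 to 60.2 CPM, nearly all Itgax) and endothelial markers (66.7 to 71.7 and 28.0 to 32.0 CPM, nearly all Vwf) were lower in NETs-treated libraries. The part of these marker differences in the values of the 10 genes was not tested. In bulk RNA, fewer cells of a type and less RNA per cell cannot be told apart.

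Tnf itself, the ligand, was lower in NETs-treated cells. Tnf (ENSMUSG00000024401.14) lies on chromosome 17 from 35199381 to 35202007, on the minus strand of GRCm38, between Ltb and Lta, which encode other ligands of the family and lie 3060 and 1157 bases away. A pair of stretches of the gene is shown because transcription from the promoter and decay through an AU-rich element of the transcript are known to set the level of Tnf RNA. The bases just before the RefSeq start site (GRCm38.p6, chr17:35202008-35202257, minus strand, 250 bases) read as follows, with a match to the TATA box letters TATAAA, 29 to 24 bases before the start, in capitals.
Tnf promoter: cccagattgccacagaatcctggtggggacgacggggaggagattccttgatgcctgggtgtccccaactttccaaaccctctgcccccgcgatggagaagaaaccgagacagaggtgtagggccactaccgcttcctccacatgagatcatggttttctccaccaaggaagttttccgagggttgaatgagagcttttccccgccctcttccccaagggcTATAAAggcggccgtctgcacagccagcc
The window held no match to the kappa-B consensus, the AP-1 sites TGACTCA and TGAGTCA, the cyclic AMP element TGACGTCA, the EGR site GCGTGGGCG, the PU.1-type ETS site GAGGAAGT or the interferon-stimulated response element on either strand, which says only that these letters are not in it. TATAAA was present in 12.4% and the kappa-B consensus in 3.90% of 32851 promoter windows of the same length, and the other 5 motifs in 0.536% to 4.46%.
The part of the Tnf 3′ untranslated region richest in the nonamer TTATTTATT, to which decay factors of the tristetraprolin family are known to bind, lies 435 to 464 bases after the stop codon (transcript Tnf-201, GRCm38, chr17:35199681-35199710, minus strand). Bases covered by a nonamer are in capitals.
Tnf AU-rich element: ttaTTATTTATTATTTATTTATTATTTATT
The Tnf 3′ untranslated region of 764 bases held 5 such nonamers, 4 of them in the stretch shown. Cflar (4962 bases) and Ripk1 (4365 bases) held 2 each in far longer regions, and the other 7 members held 0. Of 20551 genes with a 3′ untranslated region of at least 50 bases, 7.73% held the nonamer.

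In control libraries Tnf stood at 64.6, 64.9 and 60.9 CPM, and after NETs at 57.2, 46.8 and 40.8 CPM. Every NETs-treated library lay below every control, and the NETs-treated libraries were spread more widely. The means were 63.4 ± 2.25 and 48.3 ± 8.33 CPM (SD, n = 3 each). This was a log2 fold change of -0.39 with an SE of 0.12 (adjusted p = 0.0226 by edgeR), or 1.31-fold lower. The direction was the same under all 15 alternatives, and the call was kept under 12 of them. DESeq2 and the authors' table, both among the 15, gave the same log2 fold change of -0.396. The call was lost when any of 3 samples was left out and kept when any of the other 3 was. Without control replicate 1 the adjusted p was 0.0714, without control replicate 2 it was 0.0708, and without NETs-treated replicate 2 it was 0.0790 (edgeR), with log2 fold changes of -0.38, -0.38 and -0.36. Over the 15 alternatives the adjusted p of Tnf ran from 0.00107 to 0.0790.

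The genes whose level followed that of Tnf most closely over the 6 libraries were Gas8, Hnrnpul1, Pip5k1c, Nasp and Med9. Their Pearson correlations of log2 CPM with Tnf were between 0.995 and 0.999, the highest among 8644 genes at a mean level of 10 CPM or more. Correlations over 6 libraries in 2 groups are high for many genes and are given as a description. Correlations over 0.98 with Tnf were found for 92 of the 8644 genes. All 5 were lower in NETs-treated cells, with log2 fold changes between -0.67 and -0.42. Their choice by likeness to Tnf makes this direction likely beforehand.

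Adam17, the membrane protease that sheds TNF and both of its receptors, was also lower. It (ENSMUSG00000052593.16) spans 21323509 to 21373632 on chromosome 12, minus strand. Control libraries had 210, 227 and 225 CPM and NETs-treated libraries 155, 182 and 175 CPM, without overlap. The log2 fold change was -0.37 ± 0.08 (SE; adjusted p = 0.00381), 1.29-fold lower, and it was called under all 15 alternatives. Iah1, on the other strand, shares 311 of the 7154 exon bases of Adam17 and was at 28.1 and 17.0 CPM. The sources used here do not say how counting treated strand, and reads of that stretch may not be told apart.

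The remaining genes of TNF release moved in both directions. Of 8 listed genes 6 were tested, 2 rose and 1 fell, and the median log2 fold change was -0.19 against -0.02 over all genes. The share called was 50% of the 6, beside 52.7% of all tested genes. Rhbdf2, which encodes the iRhom2 protein that brings the Adam17 protease to the surface, had 68.9, 69.6 and 68.1 CPM in control and 117, 104 and 96.7 CPM in NETs-treated libraries, a log2 fold change of 0.62 ± 0.08. Frmd8, which encodes a protein that stabilises that iRhom complex, rose by 0.79 ± 0.07 (log2), from 68.0 to 117 CPM. Furin, the convertase that removes the inhibitory prodomain of such proteases, had a log2 fold change of -0.82 ± 0.14, from 169 to 95.2 CPM. The protease gene Adam10 had -0.24 ± 0.10 and did not pass (adjusted p = 0.0654). The inhibitor gene Timp3 was at 0 in all libraries. The count of falling genes in this list was 3 without NETs-treated replicate 3.

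A list of 12 genes for control of the Tnf transcript held RNA-binding factors, the kinase genes Mapk14 and Mapkapk2, and Litaf. All were tested, 5 rose and 4 fell, and the list had a median log2 change of 0.25. The share called was 75% of the 12, beside 52.7% of all tested genes. Zc3h12a, which encodes the ribonuclease regnase-1, rose from 8.51, 10.5 and 8.70 CPM to 68.1, 54.6 and 51.1 CPM, a 6.28-fold change. Rc3h1, which encodes the RNA-binding protein roquin-1, rose 2.14-fold, from 65.2 ± 1.39 to 139 ± 11.3 CPM. These genes encode factors that bind stem-loops in transcripts such as that of Tnf. Zfp36l1, a relative of tristetraprolin that binds AU-rich elements, fell 2.49-fold, from 35.5 ± 3.32 to 14.2 ± 0.466 CPM. Hnrnpd, which encodes the AU-binding protein AUF1, fell 3.00-fold, from 61.6 ± 7.07 to 20.5 ± 2.45 CPM. Zfp36, the gene of tristetraprolin itself and outside the naming rule, had 36.7 and 46.0 CPM and did not pass (log2 fold change 0.33 ± 0.16, adjusted p = 0.124).

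Of the receptor genes, Tnfrsf1b was called and Tnfrsf1a was not. Tnfrsf1a (ENSMUSG00000030341.17), the death-domain receptor, spans 125349362 to 125362484 on chromosome 6, plus strand. It had 60.6, 58.9 and 54.7 CPM in control and 67.4, 59.1 and 51.5 CPM in NETs-treated libraries, and these ranges overlapped. Its log2 fold change was 0.03 ± 0.11 (adjusted p = 0.831, edgeR), with a 95% interval of -0.21 to 0.27. The value changed sign when control replicate 3 (-0.014) or NETs-treated replicate 1 (-0.052) was left out, and when only library size was used for scaling (-0.046).

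Tnfrsf1b, the receptor without a death domain, which binds TRAF2 directly, showed the largest change of the members. It (ENSMUSG00000028599.10) spans 145213463 to 145246870 on chromosome 4, minus strand. Control libraries had 147, 135 and 135 CPM and NETs-treated libraries 348, 328 and 328 CPM. All NETs-treated values were over any control value by more than the spread within either group. The log2 fold change was 1.27 ± 0.07 (SE; adjusted p = 2.13e-06), a 2.40-fold rise, with values between 1.19 and 1.31 under the 15 alternatives. The authors' deposited table gives 1.26. The 250 bases before its start (GRCm38.p6, chr4:145246871-145247120, minus strand) are shown as those of the gene that rose most, with a match to the interferon-stimulated response element on the opposite strand in capitals, 10 to 1 bases before the start.
Tnfrsf1b promoter: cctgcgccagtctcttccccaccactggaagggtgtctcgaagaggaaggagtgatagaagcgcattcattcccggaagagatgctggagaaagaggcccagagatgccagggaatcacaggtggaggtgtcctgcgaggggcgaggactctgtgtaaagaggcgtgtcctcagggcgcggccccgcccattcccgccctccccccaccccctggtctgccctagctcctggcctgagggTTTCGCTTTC
That element was found in 2.98% of the promoter windows of this length, and among the members with a window it was found for Tnfrsf1b only. None of the other 6 motifs had a match there.

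Within each library, the count of Tnfrsf1b was 2.43, 2.30 and 2.46 times that of Tnfrsf1a in control and 5.16, 5.55 and 6.37 times in NETs-treated cells. This ratio does not depend on how libraries are scaled, but it is not corrected for exon length (3818 bases for Tnfrsf1b and 2591 for Tnfrsf1a). The groups did not overlap, and the difference in log2 ratio was 1.24 (exact two-sided permutation test, p = 0.1, the smallest that 3 against 3 samples allow; adjusted p = 0.2 over 4 ratios).

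**Figure D2:**
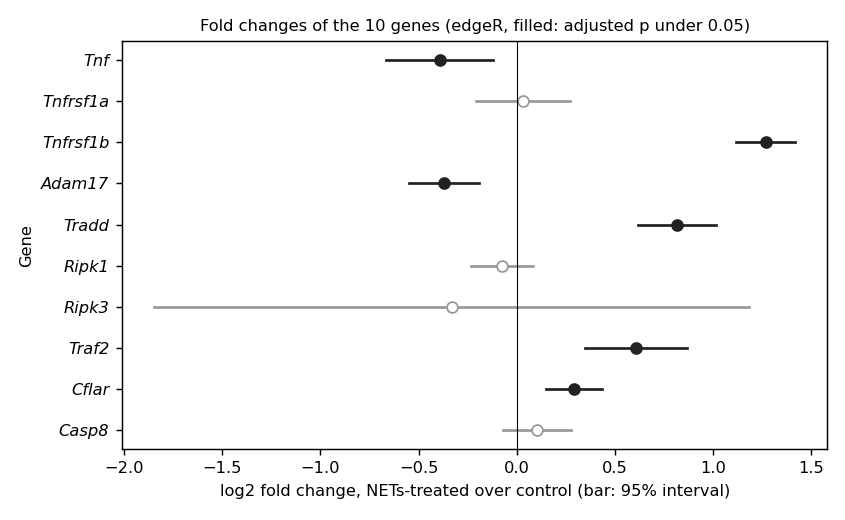
Log2 fold change of each of the 10 genes in NETs-treated over control cells (points), with 95% intervals (bars) from the edgeR fit. Filled points passed an adjusted p of 0.05, which holds for 6 genes, and the bar of Ripk3 is the widest, from -1.85 to 1.18.

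Both adaptor genes of the membrane complex rose. Tradd, whose protein binds the death domain of the occupied receptor, went from 16.4, 16.4 and 16.7 CPM to 29.6, 28.8 and 28.7 CPM. The libraries of each group lay within 1 CPM of each other, far less than the gap between the groups. Its log2 fold change was 0.82 ± 0.09 (adjusted p = 9.59e-05), a 1.76-fold rise. Tradd (ENSMUSG00000031887.13) spans 105258286 to 105264609 on chromosome 8, minus strand. Traf2, which brings the ubiquitin ligases cIAP1 and cIAP2 to the complex, had 15.7, 12.9 and 13.9 CPM in control and 22.5, 22.1 and 20.2 CPM in NETs-treated libraries. These groups did not overlap either, and the log2 fold change was 0.61 ± 0.11 (adjusted p = 0.00227), a 1.52-fold rise. Traf2 (ENSMUSG00000026942.13) spans 25517982 to 25546940 on chromosome 2, minus strand. Both calls were kept under all 15 alternatives.

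Ripk1, the kinase that links the survival and the death complexes, had overlapping groups. Ripk1 (ENSMUSG00000021408.15) spans 34002363 to 34037147 on chromosome 13, plus strand. It had 86.9, 92.3 and 84.1 CPM in control and 84.5, 82.0 and 83.4 CPM in NETs-treated libraries. The log2 fold change was -0.08 ± 0.07 (adjusted p = 0.387), with a 95% interval of -0.23 to 0.08. Serpinb6a on the other strand, at 556 and 664 CPM, shares 241 of the 8344 exon bases of Ripk1, and the pseudogene Gm17084 on the same strand shares 511, so a part of its reads is uncertain.

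The other 25 genes of the membrane complex and its ubiquitin machinery were all tested. Of these 13 rose and 5 fell, and their median log2 fold change was 0.31. The share called was 72%, beside 52.7% of all tested genes, of which 25.5% were higher and 27.2% lower. Traf1, a TRAF protein that pairs with TRAF2, rose from 5.35, 5.71 and 4.60 CPM to 55.8, 46.9 and 47.9 CPM, a 9.62-fold change. Tnfaip3, which encodes the ubiquitin-editing brake A20, rose 2.29-fold, from 32.1 ± 1.36 to 73.7 ± 1.43 CPM. Both are known NF-kB targets. Tbk1, a kinase gene, rose 2.02-fold, from 55.8 to 112 CPM, whereas that of its relative IKK-epsilon, Ikbke, fell 2.66-fold, from 99.8, 103 and 96.7 CPM to 40.7, 37.4 and 34.8 CPM. Of the 3 genes of the linear ubiquitin ligase, Rbck1 fell 1.77-fold, from 112 to 63.1 CPM, while Rnf31 (24.6 and 25.2 CPM, adjusted p = 0.834) and Sharpin (36.6 and 39.9 CPM, adjusted p = 0.427) did not pass. The cIAP genes, named after their values were seen, were unlike each other: Birc3 rose from 33.2 to 66.1 CPM (log2 fold change 0.99 ± 0.07), and Birc2 had 17.5 and 18.5 CPM (0.08 ± 0.18, adjusted p = 0.742). The difference between these genes was not tested.

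Casp8 and Cflar are neighbours on the plus strand of chromosome 1, with 36489 bases between them. Cflar (ENSMUSG00000026031.15, 58711508 to 58758884), the gene of the caspase-8 brake cFLIP, had 224, 235 and 241 CPM in control and 275, 285 and 296 CPM in NETs-treated libraries. All NETs-treated values lay over the control values, and the log2 fold change was 0.29 ± 0.06 (adjusted p = 0.00462), a rise of 1.22-fold that was called under all 15 alternatives. Casp8 (ENSMUSG00000026029.14, 58795374 to 58847503), the initiator caspase, had 63.4, 66.4 and 67.0 CPM in control and 65.8, 70.6 and 75.2 CPM in NETs-treated libraries. These overlapped, and the log2 fold change was 0.10 ± 0.08 (adjusted p = 0.285), with a 95% interval of -0.07 to 0.28.

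The count of Cflar was 3.54, 3.55 and 3.59 times that of Casp8 in the control libraries and 4.18, 4.05 and 3.94 times in the NETs-treated libraries. The groups did not overlap, but the shift was small, a difference in log2 ratio of 0.19 (exact two-sided permutation test, p = 0.1, the smallest possible; adjusted p = 0.2). Counts do not tell the long from the short cFLIP isoform, and they are not corrected for length. Cflar has 12669 annotated exon bases and Casp8 has 2893. Per kilobase the mean of Cflar was below that of Casp8, at 18.4 and 22.7 CPM per kb in control. In NETs-treated cells these means were 22.5 and 24.4 CPM per kb. The genes whose level followed Cflar most closely were Rps27rt, Ubr7, Rgs1, Ubn2 and Lcorl, with Pearson correlations between 0.998 and 0.999 over the 6 libraries. Correlations over 0.98 with Cflar were found for 440 of 8644 genes. The log2 fold changes of the named genes ran from 0.46 to 0.98, a direction that their choice makes likely beforehand. Rps27rt is a near copy of Rps27, which makes its count uncertain.

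**Figure D3:**
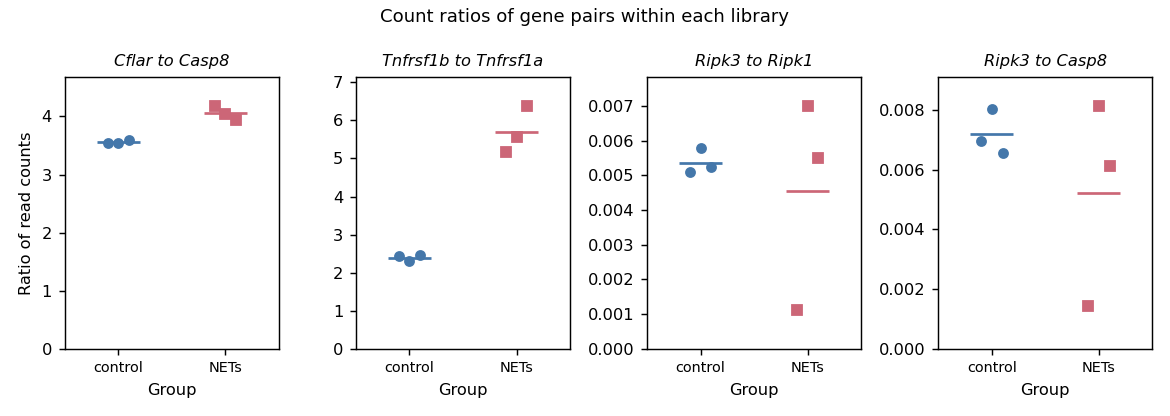
Ratios of read counts of 4 gene pairs within each of the 3 control (circles) and 3 NETs-treated libraries (squares), with a line at each group mean and axes from 0. Cflar to Casp8 and Tnfrsf1b to Tnfrsf1a lie higher in every NETs-treated library, and the Ripk3 ratios overlap, with NETs-treated replicate 1 lowest.

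Ripk3, the kinase that drives necroptosis, was barely present. Ripk3 (ENSMUSG00000022221.14) spans 55784995 to 55788865 on chromosome 14, minus strand. It had 19, 23 and 20 reads in the control and 4, 23 and 18 reads in the NETs-treated libraries, or 0.442, 0.534 and 0.441 against 0.0941, 0.574 and 0.460 CPM. NETs-treated replicate 1 was the lowest library, and the other NETs-treated libraries lay among or above the controls. The log2 fold change was -0.33 ± 0.66 (adjusted p = 0.700), and without NETs-treated replicate 1 it was 0.15. At this depth a change of up to 1.18 higher or -1.85 lower on the log2 scale lies within the 95% interval, so a difference was not detectable. The log2 ratio of Ripk3 to Ripk1 differed by -0.61 (exact permutation test, p = 0.9) and that of Ripk3 to Casp8 by -0.79 (exact permutation test, p = 0.5). Without NETs-treated replicate 1 these differences were 0.21 and -0.02.

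The other members of the caspase and necroptosis arm moved both ways. Of 20 genes 19 were tested, 7 rose and 4 fell, and the list had a median log2 change of 0.12. The share called was 57.9% of the 19, beside 52.7% of all tested genes. Casp9, the initiator caspase of the mitochondrial route, rose 1.94-fold, from 46.8 ± 2.05 to 90.6 ± 5.30 CPM. Htra2, a mitochondrial protease that counters inhibitors of apoptosis, fell 2.46-fold, from 143 ± 10.1 to 58.1 ± 11.5 CPM. The genes that flank RIPK3 and caspase-8 in the complexes, named after their values were seen, were Fadd, which fell from 11.1 to 6.52 CPM (log2 fold change -0.77 ± 0.19, adjusted p = 0.00826), and Mlkl, the pore-forming effector of necroptosis, with 37.3 and 40.6 CPM (0.12 ± 0.11, adjusted p = 0.390). Zbp1, another activator of RIPK3, was at 0 in all libraries. With scaling by library size only, 7 genes of this list fell in place of 4.

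Per kilobase of exon, the order of the members changed between the groups. The length used was that of all annotated exons of a gene together. It can exceed the length of the transcripts present, so the order between genes is approximate. In control cells Tnf stood highest at 38.7 ± 1.37 CPM per kb, followed by Tnfrsf1b at 36.4 ± 1.86, and their ranges overlapped. In NETs-treated cells Tnfrsf1b led at 87.6 ± 3.02 CPM per kb and did not overlap with Tnf, next at 29.5 ± 5.08. Casp8, Adam17, Tnfrsf1a and Cflar followed at 24.4, 23.9, 22.9 and 22.5 CPM per kb, and each overlapped with its neighbour in that order. In control the order had been Adam17 at 30.9, Casp8 at 22.7, Tnfrsf1a at 22.4 and Cflar at 18.4 CPM per kb, with overlap between Casp8 and Tnfrsf1a. Below these, Ripk1 (10.5 and 9.98 CPM per kb) and Tradd (8.83 and 15.6 CPM per kb) changed places. Traf2 (2.79 and 4.24) and Ripk3 (0.206 and 0.164 CPM per kb) were lowest in both groups.

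Other ligands of the family were measured for comparison. Of 17 genes 8 were tested, 6 fell and 0 rose (edgeR; 7 lower and 0 higher at an unadjusted p under 0.05, and 0 higher in each alternative, DESeq2 and limma-voom included), with a median log2 fold change of -1.22, beside 27.2% of all tested genes that fell. Tnf, at -0.39, fell less than any of these 8 on the log2 scale, though the differences between genes were not tested. Tnfsf18, the ligand of the receptor GITR, went from 183, 244 and 227 reads to 38, 25 and 17 reads, a 7.59-fold fall in CPM. Tnfsf9, the ligand of the receptor 4-1BB and the most abundant of the 8, fell 2.31-fold, from 106 ± 2.82 to 45.8 ± 5.14 CPM. Tnfsf12, the gene of TWEAK, fell 2.28-fold to 14.4 ± 1.98 CPM, but it overlaps the readthrough locus Tnfsfm13, so its reads are uncertain. Tnfsf14 had 2.41 and 0.915 CPM, a log2 fold change of -1.39 ± 0.33. The neighbours of Tnf were scarce, Lta with 0.670 and 0.284 CPM (adjusted p = 0.175) and Ltb with 0.989 and 0.421 CPM (adjusted p = 0.0504), and neither passed. The death ligand gene Tnfsf10 was at 0 in all libraries, as were 6 other ligand genes of the list.

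Of 26 other receptor genes 18 were tested, 6 rose and 5 fell, and the list had a median log2 change of -0.05. The share called was 61.1% of the tested receptor genes, beside 52.7% of all tested genes. Fas, the death receptor that recruits FADD directly, had 23, 5 and 43 reads in control and 345, 265 and 392 reads in NETs-treated libraries. This was a log2 fold change of 3.94 ± 0.55 (adjusted p = 4.18e-04, edgeR). Fas passed the filter through its NETs-treated reads. Tnfrsf22, a decoy receptor for the TRAIL ligand, rose 4.07-fold, from 20.6 ± 1.42 to 83.8 ± 4.45 CPM. It lies in a cluster of related genes with Tnfrsf23 and Tnfrsf26 on chromosome 7, which makes its count uncertain among these copies. Tnfrsf11a, the gene of the RANK receptor of osteoclast differentiation, fell 2.63-fold, from 27.7 ± 2.52 to 10.5 ± 3.00 CPM. Tnfrsf4, among the 5 called lower, had 0.939 CPM in control and 0.0941, 0.249 and 0 CPM after NETs. With 55, 33 and 35 reads in control and 4, 10 and 0 after NETs, it passed the filter through its control reads. Its call is therefore given no weight here. The count of falling genes in this list was 2 without control replicate 1 and 3 without NETs-treated replicate 3. It was 3 without a filter on low counts and 4 with the filter of CPM 1 in 3 samples.

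**Figure D4:**
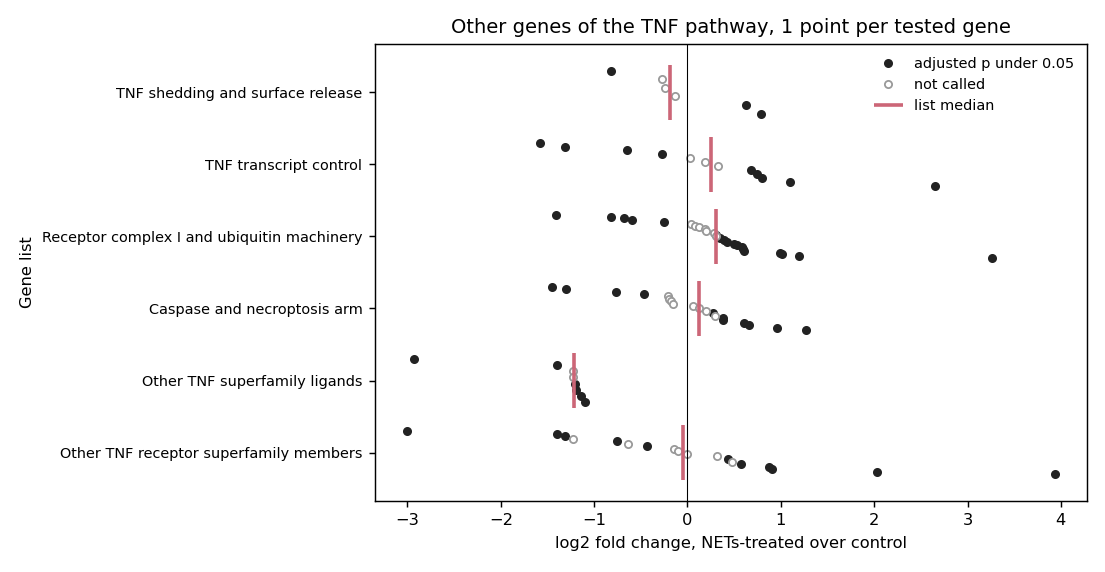
Log2 fold changes of the tested genes in 6 lists of other TNF pathway genes, 1 point per gene, with filled points past an adjusted p of 0.05 and a bar at each list median. All 8 tested ligand genes lie left of 0, whereas the other lists hold genes on both sides.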

How the data were processed

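Total RNA of 6 mouse samples was sequenced with strand-specific libraries, per the labels' protocols. HISAT2, DESeq2 and the builds rn6 and mm10 are named without roles in the submitters' processing notes; which program counted reads, with what strand setting and which gene annotation, was not given in the sources used here. The authors deposited raw read counts, a normalised signal, log2 fold changes, and raw and adjusted p-values, per the file headers; a check of the values showed that the signal is the count over 1 constant for each library.

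The raw counts were tested here by quasi-likelihood (edgeR 4.0.16, R 4.3.3, TMM scaling, minimum count 10 and minimum total 15, two-sided, no covariates), adjusted by the Benjamini-Hochberg method over 15272 genes. The SE was taken from the fold change and its F statistic. CPM values were computed here. The libraries of 1 group were enough to pass the filter. A gene scarce in the other group thus entered through the group where it was higher. Alternatives were other scalings, filters, DESeq2 1.42.0, limma-voom (limma 3.58.1), a replicate block, omission of each sample, and the authors' table. For ratios, a pseudocount of 1 count was an alternative too. The DESeq2 run and the authors' table gave the same log2 fold changes for the members, so these alternatives are not independent. The fit was run on simulated data with far fewer changed genes than were called here. That run checks the code and does not give error rates for these data. The labels name no molecular identifiers, so limits from counts reflect counting error only.

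Members and lists were chosen with earlier results of these data known. Besides the members, from each pathway list up to 4 called genes with the largest change and up to 2 called against the majority were named, from each cell type list the 3 most abundant, and for Tnf and Cflar the 5 best correlated genes; some genes that this rule names are not reported here. Exon lengths and coordinates came from GENCODE M21 (GRCm38), where 54349 of 55401 identifiers matched, all members included. Promoters of 9 of the 10 members came from RefSeq (GRCm38.p6), without Tradd.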

Additional observations from a re-analysis of the deposited data

How the results depend on the processing

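Of 421 values under alternatives, 402 were classed as the same. For this, fold changes had to keep their direction and their side of the threshold, and counts had to stay within 1.5 times. Ratios within a library had only to keep the direction of their difference. The calls of Tnfrsf1b, Tradd, Traf2, Cflar and Adam17 held under all 15 alternatives, and those of Tnf under 12. Leaving out 1 sample gave log2 fold changes of Tnf from -0.51 to -0.28, of Tnfrsf1a from -0.052 to 0.13 and of Ripk3 from -0.75 to 0.15, and a difference in the log2 ratio of Ripk3 to Ripk1 from -1.11 to 0.21. It gave 1 to 2 falling members, 1 to 3 falling genes of TNF release and 2 to 5 falling receptor genes. With library size only, the log2 fold change of Tnfrsf1a was -0.046, 2 genes of TNF release fell and 7 of the caspase arm fell. With limma-voom 2 genes of TNF release fell, and without a filter on low counts 3 receptor genes fell. The cause of these changes was not tested. With the replicate block 2 genes of TNF release fell in place of 1, and no call of a member changed. Deviations from the group means had correlations of 0.206, 0.028 and 0.0759 between same-numbered samples, and of -0.143 to 0.0791 between differently numbered ones. Control replicate 2 correlated best with NETs-treated replicate 3 (0.0791). The labels state no pairing, and these values do not settle whether same-numbered samples belong together. Ripk3 was removed by the filter of CPM 1 in 3 samples. Low read counts limit what can be said of Ripk3, Lta, Tnfrsf4 and other genes near or under 1 CPM.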
